A study of Mus musculus with 162 samples.

Results

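The 8 genes described here were Rorb, Inhba, Cux1, Cux2, Lhx2, Pou3f1, Pou3f2 and Pou3f3, which mark or act in neurons of the upper layers of the mouse neocortex. They were chosen by name as 5 genes of upper layer neurons and the 3 Pou3f transcription factor genes expressed there, and they are 8 of the 22879 genes in the counts. All 8 had counts in cells that passed quality control, from 26 such cells for Inhba to 99 for Cux1. Every value below describes cells of embryos at E17.5 to E18.5.

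Neurons of the neocortex are born in the ventricular and subventricular zones from the deep layers to the upper layers, so near birth the upper layer neurons are the youngest and some are still migrating. Pou3f2 and Pou3f3 are POU domain transcription factors that act together in the production and migration of upper layer neurons in mice, and Pou3f1 is a close relative. Cux1 and Cux2 are CUT homeodomain factors that shape dendrites and spines of upper layer neurons, and Cux2 is also made by cortical interneurons and their precursors. Lhx2 is a LIM homeodomain factor of cortical progenitors and of upper layer neurons, Rorb is a nuclear receptor that marks layer IV, and Inhba encodes the activin A subunit, a secreted ligand of the TGF-beta family.

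Each of the 162 samples was the cytosol of 1 cell, drawn into a patch pipette and sequenced as total RNA. The cells came from 3 Cre driver lines, 18 cells from the Nex line, 22 from the Lhx6 line and 122 from the Htr3a line. Nex (Neurod6) is expressed in young glutamatergic neurons, Lhx6 in interneurons that arise in the medial ganglionic eminence, and the serotonin receptor gene Htr3a in those that arise in the caudal one; the labels name no reporter, so how a cell was picked for recording is not known here. Quality control by the submitters failed 14 cells and passed the others, 17 of the Nex line, 17 of the Lhx6 line and 114 of the Htr3a line. The passed cells carried 9 type labels. There were 11 VZ-derived cells (2 of the Nex line, 1 of the Lhx6 line and 8 of the Htr3a line), 12 Cajal Retzius cells (all Htr3a), 33 Glutamatergic 1 cells (10 Nex, 23 Htr3a) and 13 Glutamatergic 2 cells (1 Nex, 12 Htr3a). Of interneuron labels there were 18 MGE-derived 1 cells (7 Lhx6, 11 Htr3a), 24 MGE-derived 2 cells (7 Lhx6, 17 Htr3a), 11 CGE-derived cells (all Htr3a) and 4 GABAergic cells (1 Lhx6, 3 Htr3a), and 22 cells were labelled Undefined (4 Nex, 1 Lhx6, 17 Htr3a). MGE and CGE are taken as the 2 ganglionic eminences just named and VZ as the ventricular zone, since the labels give the letters alone. No label gave a genotype beyond the Cre line, an animal, a litter or a batch, so each group counts as 1 sample, no test between groups was made, and every SD is over cells.

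On build GRCm38, Cux1 (chromosome 5, 136248135 to 136567490, minus strand) and Cux2 (chromosome 5, 121856366 to 122050102, minus strand) lie on the same chromosome. Pou3f1 (chromosome 4, 124656807 to 124660655, plus strand) and Pou3f2 (chromosome 4, 22482780 to 22488366, minus strand) also share one, and Pou3f3 lies on chromosome 1 (42695768 to 42703176, plus strand). Rorb lies on chromosome 19 (18930605 to 19111196, minus strand), Inhba on chromosome 13 (16011851 to 16031621, plus strand) and Lhx2 on chromosome 2 (38339281 to 38369733, plus strand). Of the 50-base stretches of Pou3f1 exons, 7.42% also occur in the antisense gene Gm2164. Whether counting used strand is not given in the sources used here, so counts of Pou3f1 and of that gene cannot be told apart over those stretches. The other 7 genes share 1.97% (Cux1) or less of such stretches with other genes.

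RefSeq upstream windows of build GRCm38.p6, each the 250 bases before a transcript start, were read for 7 of the genes; Pou3f1 had no entry. They are shown for the genes on which the results below turn most. The Cux2 window (chr5:122047826-122048075, minus strand) lies before an inner transcript start and holds the only motif match found, a CUX motif in capitals 72 bases before that start. The Rorb window is chr19:19111197-19111446 (minus strand), the Pou3f2 window chr4:22488367-22488616 (minus strand) and the Pou3f3 window chr1:42695518-42695767 (plus strand), all from the gene's first start and printed in the direction of transcription.
Cux2: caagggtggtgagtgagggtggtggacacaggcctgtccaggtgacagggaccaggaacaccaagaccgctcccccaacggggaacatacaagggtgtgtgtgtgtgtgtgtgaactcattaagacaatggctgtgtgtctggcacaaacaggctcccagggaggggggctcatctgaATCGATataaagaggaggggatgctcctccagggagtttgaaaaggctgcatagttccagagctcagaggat
Rorb: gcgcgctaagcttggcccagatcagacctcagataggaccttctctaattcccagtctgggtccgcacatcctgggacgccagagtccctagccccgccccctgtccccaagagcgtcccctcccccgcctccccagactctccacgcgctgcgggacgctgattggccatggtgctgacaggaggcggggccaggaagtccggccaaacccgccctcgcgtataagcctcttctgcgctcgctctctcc
Pou3f2: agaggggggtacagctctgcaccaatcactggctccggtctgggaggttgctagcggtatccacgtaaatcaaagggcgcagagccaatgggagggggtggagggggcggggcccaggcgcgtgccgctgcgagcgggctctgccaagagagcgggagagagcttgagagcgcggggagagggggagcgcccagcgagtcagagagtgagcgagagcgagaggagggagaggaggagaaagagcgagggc
Pou3f3: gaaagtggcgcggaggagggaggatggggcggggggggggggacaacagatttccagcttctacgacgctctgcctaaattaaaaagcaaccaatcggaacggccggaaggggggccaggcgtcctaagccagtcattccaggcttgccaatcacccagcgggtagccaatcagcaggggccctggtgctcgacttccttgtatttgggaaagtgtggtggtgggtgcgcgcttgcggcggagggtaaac
The motifs searched were 4, read on both strands: the POU octamer ATGCAAAT, the LIM homeodomain core TAATTA, the CUX motif ATCGAT and the core AGGTCA of the ROR site. Of all 32851 windows of this length, 1.6% hold the octamer, 4.84% the LIM core, 0.728% the CUX motif and 14% the ROR core. A missing match says only that these letters are not in these windows. The windows differ in composition, with 55.2% G and C in the inner Cux2 window, 66.0% in the Rorb window, 66.8% in the Pou3f2 window and 60.8% in the Pou3f3 window, against a median of 52.4% over all windows. The window before the first Cux2 start (chr5:122049852-122050101, minus strand), not printed here, has 80.0% and holds no match.

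Total counts of a passed cell ran from 1710224 to 24836041 with a median of 9463972.5, and 2066 to 14810 genes had a count in it (median 5363). Cells with more genes had more of the 8 genes (r = 0.52 over all passed cells). Summed levels of marker genes are in CPM (the share of all counts, scaled to the same total in every cell or group) of the label's summed counts. They followed the labels for Cajal-Retzius cell markers (13054 CPM in Cajal Retzius cells) and for GABAergic markers (2426 to 2997 CPM in the 4 interneuron labels). Glutamatergic markers stood at 1055 CPM in Glutamatergic 1 and 1358 CPM in Glutamatergic 2 cells. They did not set these labels apart, with 1193 CPM in VZ-derived, 863 CPM in Undefined and 593 CPM in Cajal Retzius cells. The VZ-derived label is read as an origin in the ventricular zone. Summed over its cells, 11 markers of ventricular zone progenitors stood at 238 CPM, against 136 CPM in Glutamatergic 1 and 259 CPM in Glutamatergic 2 cells. Per VZ-derived cell these markers had a median sum of 0.101 CPM (0 to 1002 CPM). The 7 glutamatergic neuron markers had a median sum of 917 CPM per VZ-derived cell (196 to 3885 CPM). These 11 cells are called by their label only, and no progenitor state is read from it. Microglia markers reached 12310 CPM in an MGE-derived 2 cell; their part in the results was not tested.

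Across type labels the 8 genes fell into separate patterns, shown in the plot of every cell's level by label. Rorb, Inhba and Lhx2 had their highest mean levels outside the interneuron labels, Cux2 had its highest in interneuron labels, and Pou3f3 was high in VZ-derived and interneuron cells alike. Most genes were absent from many cells and high in a few, so the SD over cells often exceeded the mean. Levels are compared below between labels and never between genes, because CPM is not divided by gene length.

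**Figure D1:**
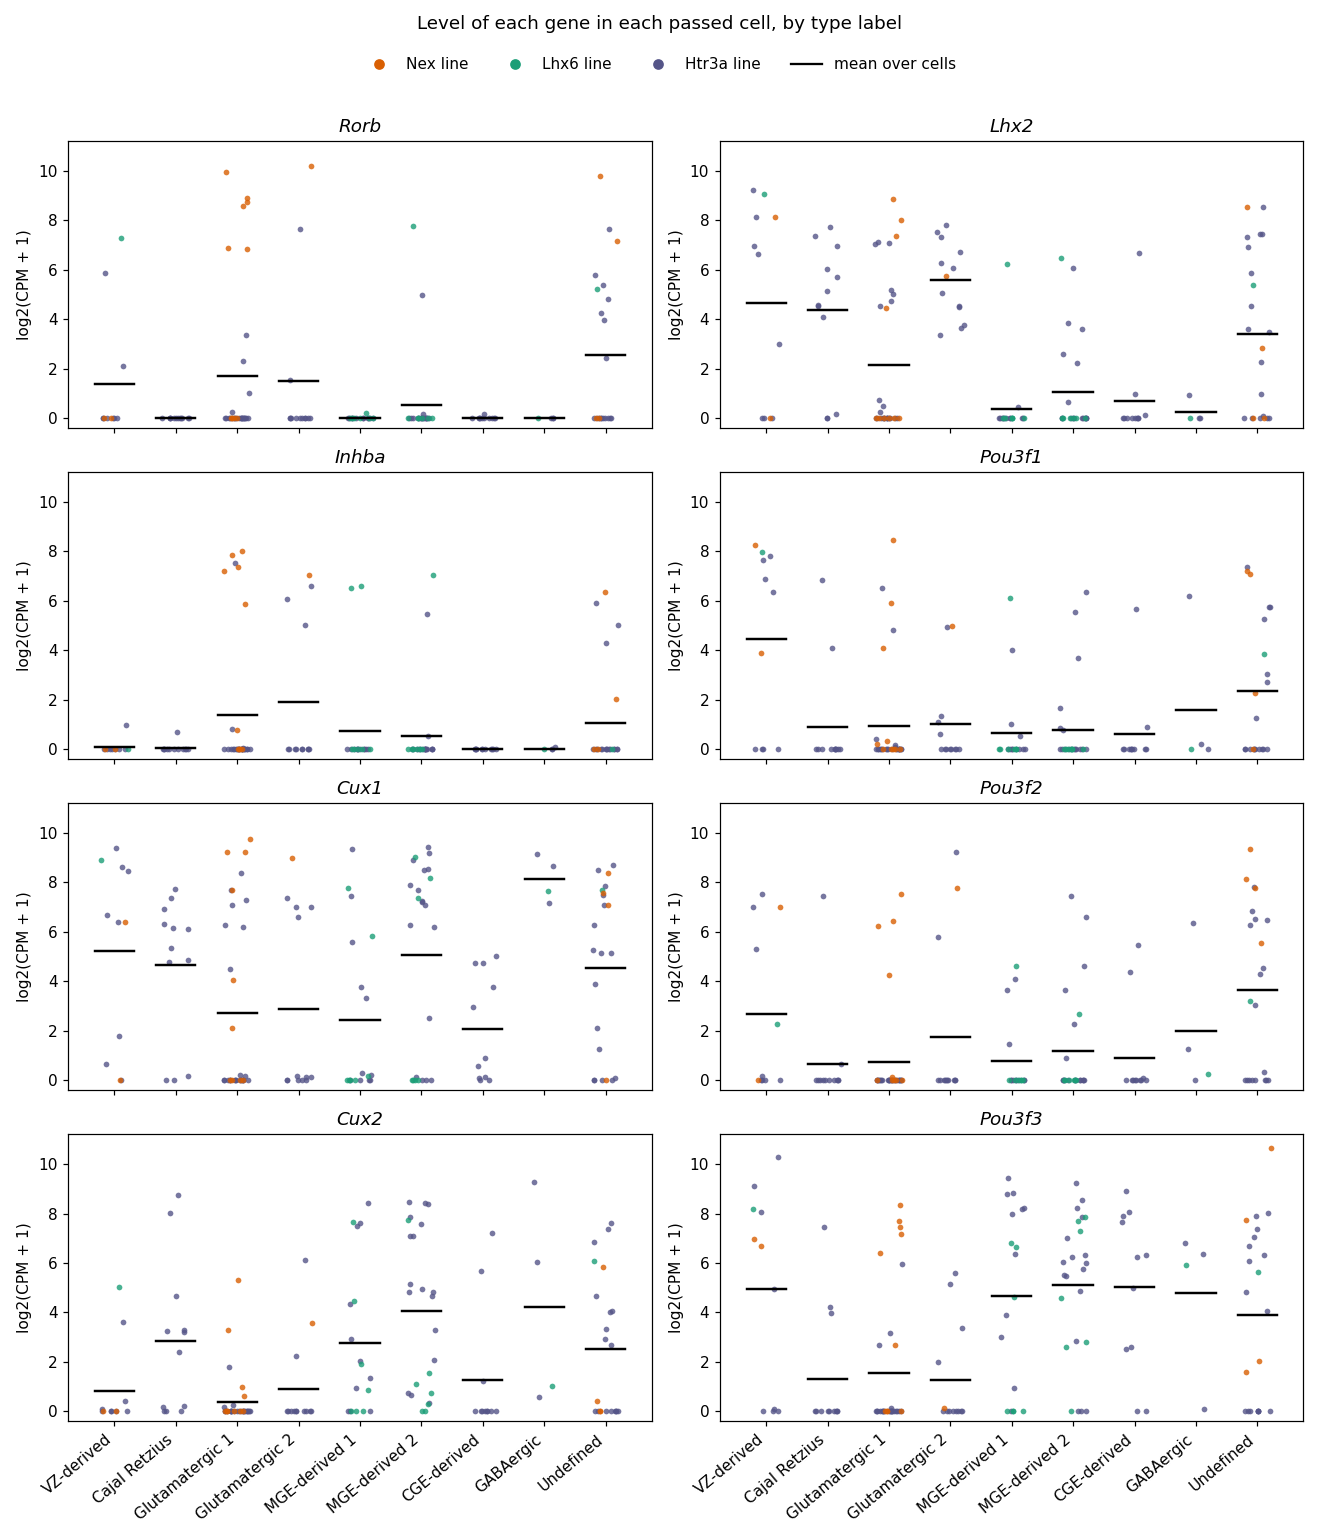
Level of each gene, as log2(CPM + 1), in each passed cell (points, coloured by driver line) under each type label, with the mean over cells as a black line. Rorb and Inhba lie at 0 in most cells and reach 7 to 10 in single cells, while Cux2 and Pou3f3 are above 0 in most MGE-derived 2 cells.

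Lhx2 had a count in 13 of 13 Glutamatergic 2 cells, at 9.34 to 221 CPM (median 53.4). It had one in 7 of 11 VZ-derived cells (0 to 602 CPM, median 99.5), 10 of 12 Cajal Retzius cells (0 to 209 CPM, median 28.6) and 14 of 33 Glutamatergic 1 cells (0 to 462 CPM, median 0). Interneuron labels were lower, with 2 of 18 MGE-derived 1 cells, 7 of 24 MGE-derived 2 cells, 3 of 11 CGE-derived cells and 1 of 4 GABAergic cells, each with a median of 0 CPM. By the mean of log2(CPM + 1), Glutamatergic 2 stood highest at 5.57 ± 1.53 (SD over 13 cells), then VZ-derived at 4.65 ± 4.04 (11 cells) and Cajal Retzius at 4.36 ± 2.83 (12 cells). The gaps between these neighbours in the order, 0.92 and 0.29, were within their SDs.

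Rorb had a count in 31 passed cells and none in 12 Cajal Retzius cells, which allows a share of up to 25% of cells. Its levels ran from 0 to 996 CPM in Glutamatergic 1 cells (10 of 33 with a count) and 0 to 1181 CPM in Glutamatergic 2 cells (3 of 13). They ran from 0 to 157 CPM in VZ-derived cells (3 of 11) and 0 to 881 CPM in Undefined cells (10 of 22), and the median was 0 CPM in all these labels. In the 57 interneuron-labelled cells it had a count in 5 cells, 3 of them with a single count. One Glutamatergic 2 cell, of the Nex line, held 88.7% of that label's Rorb counts, and the label's summed level of 91.1 CPM was 11 CPM without it. Inhba was as sparse, with a count in 9 of 33 Glutamatergic 1 cells (0 to 258 CPM), 4 of 13 Glutamatergic 2 cells (0 to 131 CPM), 1 of 11 VZ-derived cells (highest 0.997 CPM), 1 of 12 Cajal Retzius cells (highest 0.610 CPM) and 0 of 11 CGE-derived cells (up to 27.3%). For Rorb and Inhba, no gap between neighbouring labels in the order of means exceeded the larger of their SDs.

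Cux1 was the most often detected of the 8 genes, in 99 passed cells. All 4 GABAergic cells held it at 143 to 563 CPM (median 302), and their mean of 8.16 ± 0.90 stood 2.94 above the next label, VZ-derived at 5.22 ± 3.81, a gap larger than the SD of the GABAergic cells and smaller than that of the VZ-derived ones. Its median was 84.7 CPM in VZ-derived cells (9 of 11 with a count), 54.4 CPM in Cajal Retzius cells (10 of 12) and 142 CPM in MGE-derived 2 cells (17 of 24), against 0 CPM in Glutamatergic 1 cells (15 of 33). CGE-derived cells held it often and at low levels, with a count in 9 of 11 cells and a highest level of 31.8 CPM. Cux2 was detected in 22 of 24 MGE-derived 2 cells (0 to 358 CPM, median 25.9), 12 of 18 MGE-derived 1 cells (0 to 343 CPM, median 2.16), 4 of 4 GABAergic cells (0.503 to 614 CPM, median 33.2) and 9 of 12 Cajal Retzius cells (0 to 428 CPM, median 6.22). It was lowest in Glutamatergic 1 cells, with 7 of 33 cells and a highest level of 38.4 CPM.

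The 3 Pou3f genes differed in where they stood. Pou3f3 had a count in 86 passed cells, among them 20 of 24 MGE-derived 2 cells (median 57.9 CPM), 13 of 18 MGE-derived 1 cells (median 52.4 CPM), 9 of 11 CGE-derived cells (median 75.3 CPM), 4 of 4 GABAergic cells (median 69.9 CPM) and 8 of 11 VZ-derived cells (median 102 CPM). Glutamatergic 1 and Glutamatergic 2 cells had it in 10 of 33 and 5 of 13 cells, with a median of 0 CPM in both. Pou3f1 was detected in 7 of 11 VZ-derived cells (0 to 301 CPM, median 80.3), and in no other label did its median exceed 0.704 CPM (Undefined). Its mean in VZ-derived cells, 4.44 ± 3.71, stood 2.10 above the next label, Undefined at 2.34 ± 2.82, a gap smaller than either SD. Pou3f2 stood highest in Undefined cells, with a count in 14 of 22 cells (0 to 650 CPM, median 13.4), followed by VZ-derived cells (6 of 11, 0 to 186 CPM, median 0.132). The gap between their means, 0.98, was smaller than either SD (3.41 and 3.33). Undefined cells held markers of several types, with sums of 863 CPM for glutamatergic, 318 CPM for GABAergic, 1120 CPM for Cajal-Retzius cell and 748 CPM for ventricular zone progenitor markers.

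**Figure D2:**
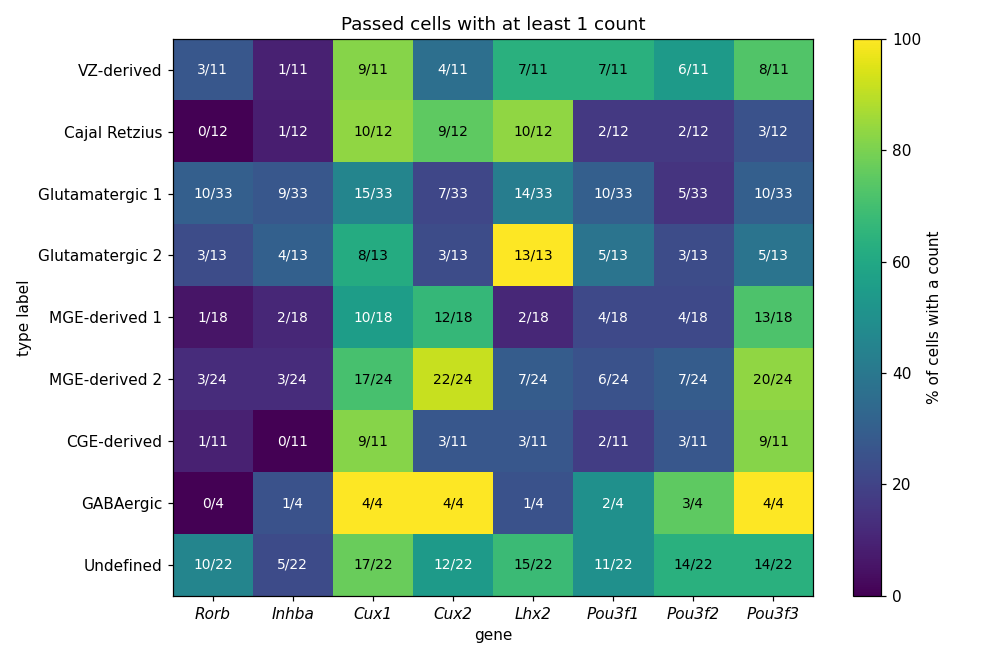
Share of passed cells with at least 1 count of each gene (columns) under each type label (rows), with the number of cells written in each field. Lhx2 in 13 of 13 Glutamatergic 2 cells and Cux2 in 22 of 24 MGE-derived 2 cells stand against Rorb in 0 of 12 Cajal Retzius cells.

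The plainest difference in these genes was between driver lines under 1 label. In Glutamatergic 1 cells, the 10 Nex line cells stood above the 23 Htr3a line cells in 7 of the 8 genes by at least 1 in the mean of log2(CPM + 1), the size here called higher or lower, and in none below. Over all 12508 genes with a count in at least 10% of either group's cells, 14.3% were higher in the Nex line cells and 19.1% lower, and the median difference was -0.10, against a median of 2.30 for the 8 genes. Nex line cells held 2 to 8 of the 8 genes (median 4) and Htr3a line cells 0 to 5 (median 1), although Nex line cells had fewer genes in all (median 4311.5 per cell, against 5183 in Htr3a line cells). The summed level of the 8 genes was 134 to 2092 CPM per cell in Nex line cells (median 482) and 0 to 432 CPM in Htr3a line cells (median 4.24), so 6 Htr3a line cells and no Nex line cell lacked all 8.

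Rorb led. It was at 0 to 996 CPM in Nex line cells (median 114, 6 of 10 with a count) and at 0 to 9.18 CPM in Htr3a line cells (median 0, 4 of 23 with a count), and the 6 Nex line cells with a count all stood above every Htr3a line cell. Summed Rorb levels were 255 CPM (95% interval 251 to 258) in Nex line cells and 0.47 CPM (0.380 to 0.566) in Htr3a line cells, a 547-fold ratio. One Htr3a line cell held 75 of that line's 101 Rorb counts; without it the Htr3a line sum was 0.125 CPM and the ratio 2044-fold, and without the Nex line cell of most counts the ratio was 393-fold. The log2 difference was 4.69 (mean 4.99 ± 4.39 against 0.30 ± 0.84). The intervals are exact Poisson intervals and cover counting error only, not this spread over cells. Inhba was at 0 to 258 CPM in Nex line cells (median 29.5, 6 of 10) and at 0 to 186 CPM in Htr3a line cells (median 0, 3 of 23), with a log2 difference of 3.34. The 1 Htr3a line cell at 186 CPM of Inhba lay within the range of the Nex line cells, and every other Htr3a line cell was below 1 CPM.

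Of the homeodomain genes, Cux1 was at 0 to 875 CPM in Nex line cells (median 9.39, 6 of 10) and at 0 to 331 CPM in Htr3a line cells (median 0, 9 of 23), a log2 difference of 2.13. Among cells with 4000 to 9000 genes, the Cux1 difference was 0.72. Lhx2 was at 0 to 462 CPM in Nex line cells (median 0, 4 of 10) and at 0 to 137 CPM in Htr3a line cells (median 0, 10 of 23), and differed by 1.04, or by 0.37 without the Nex line cell of highest level. Cux2 was low in both lines, with a highest level of 38.4 CPM in Nex line cells and 2.43 CPM in Htr3a line cells, and its difference of 0.92 was the one below 1.

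The Pou3f genes followed the same direction. Pou3f2 had a count in 5 of 10 Nex line cells (0 to 186 CPM, median 0.0471) and in 0 of 23 Htr3a line cells, which allows a share of up to 13%. Its summed level of 42.6 CPM in Nex line cells was at least 3073.5-fold higher than the level that 3 counts over all Htr3a line cells would give. Without the Nex line cell that held 1921 of the 3292 counts, the sum was 20.5 CPM and the bound 1477-fold. Pou3f3 was at 0 to 328 CPM in Nex line cells (median 44.9, 6 of 10) and at 0 to 61.9 CPM in Htr3a line cells (median 0, 4 of 23), a log2 difference of 3.46. Pou3f1 was at 0 to 348 CPM in Nex line cells (median 0.0865, 5 of 10) and at 0 to 90.0 CPM in Htr3a line cells (median 0, 5 of 23), and differed by 1.38, or by 0.65 without the Nex line cell of highest level. The Nex line cell with that Pou3f1 level held all 8 genes, and so did the single Nex line cell labelled Glutamatergic 2, with Rorb at 1181 CPM, Cux1 at 507 CPM, Pou3f2 at 218 CPM and Inhba at 131 CPM.

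**Figure D3:**
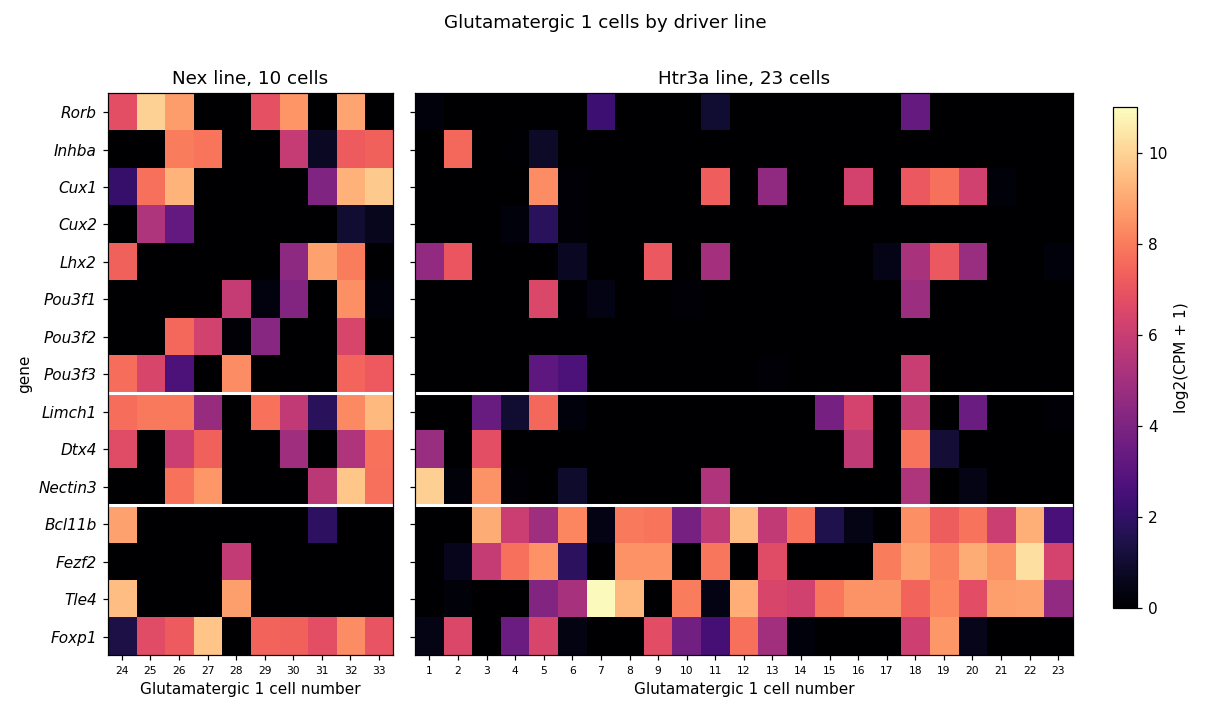
Level as log2(CPM + 1) of the 8 genes (top block), 3 other upper layer genes (middle block) and 4 deep layer genes (bottom block), in 10 Nex line and 23 Htr3a line Glutamatergic 1 cells (columns). Pou3f2 is at 0 in all 23 Htr3a line cells, and Fezf2 and Bcl11b are at 0 in most Nex line cells.

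Other layer genes differed between the lines as well. Of 16 other upper layer genes, 14 were measured in enough cells, of which 8 were higher and 2 lower in Nex line cells (median difference 1.74). Limch1, which encodes a protein with LIM and calponin homology domains, was at 0 to 669 CPM in Nex line cells (median 209, 9 of 10) and at 0 to 188 CPM in Htr3a line cells (median 0, 9 of 23), a difference of 4.74. Dtx4 differed by 2.68 and Nectin3 by 2.61, while Lmo4 was lower by 2.45 on the log2 scale. Of 14 measured deep layer genes, 2 were higher and 7 lower (median -0.83). Fezf2, which specifies subcerebral projection neurons, had a count in 1 of 10 Nex line cells and 16 of 23 Htr3a line cells (difference -4.43), Bcl11b in 2 of 10 Nex line and 20 of 23 Htr3a line cells (-4.16) and Tle4 in 2 of 10 Nex line and 19 of 23 Htr3a line cells (-3.79). Foxp1 went the other way (3.65).

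Genes that act with or belong beside the 8 were measured in the same cells. In the activin pathway of Inhba, 12 of 17 genes were measured, 3 higher and 1 lower in Nex line cells (median -0.07); the type I receptor gene Acvr1 differed by 2.32 and the type II receptor gene Acvr2a by -2.0. Of 3 measured nuclear receptor genes near Rorb, Nr1d2 (2.41) and Rora (1.23) were higher. Among 5 measured POU factor genes, Pou2f1 was higher (1.02), and among 11 LIM homeobox and cofactor genes 4 were higher and 5 lower, led by Ldb2 (3.13). Erythrocyte genes moved with the line as well: 4 of 5 were lower in Nex line cells, their sum was 0 to 22.3 CPM per cell there (median 0, Hba-a2 and Hbb-bt at 0) and 0 to 2029 CPM in Htr3a line cells (median 38.6). Both measured intermediate progenitor markers (of 6) were lower in Nex line cells too, with list sums of 0 to 150 CPM per cell there (median 0, Eomes, Neurog1, Neurog2, Insm1 and Btg2 at 0) and 0 to 1471 CPM in Htr3a line cells (median 45.2, Eomes and Neurog1 at 0). Of 2 measured astrocyte markers (of 6) Slc1a2 was lower, with list sums of 0 to 162 CPM in Nex line cells (median 0, the other 5 at 0) and 0 to 328 CPM in Htr3a line cells (median 0.939, Gfap and Aldh1l1 at 0). Of 6 measured glutamatergic markers (of 7), 3 were higher and 2 lower, with sums of 543 to 8608 CPM in Nex line cells (median 1379) and 71.1 to 1872 CPM in Htr3a line cells (median 728). The part of these lists in the result was not tested. Driver line, animals and batch cannot be told apart, and how the type labels were set is not given in the sources used here.

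Over all labels, Rorb had a count in 9 of 17 Nex line cells (326 CPM summed), 4 of 17 Lhx6 line cells (26.9 CPM) and 18 of 114 Htr3a line cells (4.96 CPM). Pou3f2 had one in 11 of 17 Nex line cells (118 CPM), 5 of 17 Lhx6 line cells (2.52 CPM) and 31 of 114 Htr3a line cells (20.1 CPM). Without the cell of most counts, the Rorb sum was 16.1 CPM in Lhx6 line cells and the Pou3f2 sum 72.2 CPM in Nex line and 1.33 CPM in Lhx6 line cells. The 4 Undefined Nex line cells all held Pou3f2 (46.5 to 650 CPM) and Pou3f3 (2.04 to 1609 CPM).

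Glutamatergic cells (both labels, 46 cells) were set against the 57 cells of the 4 interneuron labels. Lhx2, Rorb and Inhba were higher in glutamatergic cells, and Pou3f3, Cux2 and Cux1 were lower there, so 3 of 8 genes were higher, where 9.74% of 13139 genes were, and 3 lower, where 6.07% were. Lhx2 was at 0 to 462 CPM in glutamatergic cells (median 10.4, 27 of 46 with a count) and at 0 to 101 CPM in interneuron-labelled cells (median 0, 13 of 57), a log2 difference of 2.40 (2.44 within the Htr3a line). Rorb differed by 1.42 (13 of 46 glutamatergic against 5 of 57 interneuron-labelled cells) and Inhba by 1.07 (13 of 46 against 6 of 57). Within the Htr3a line the Rorb difference was 0.33 and the Inhba difference 0.60, so neither reached 1 there.

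Pou3f3 was at 0 to 328 CPM in glutamatergic cells (median 0, 15 of 46) and at 0 to 686 CPM in interneuron-labelled cells (median 62.2, 46 of 57), a log2 difference of -3.45 (mean 1.48 ± 2.63 against 4.93 ± 3.17). Cux2 was at 0 to 68.8 CPM in glutamatergic cells (median 0, 10 of 46) and at 0 to 614 CPM in interneuron-labelled cells (median 1.96, 41 of 57), a difference of -2.61. Both groups reached 0 for each of these genes, so the groups overlapped. Cux1 differed by -1.11, with a count in 23 of 46 glutamatergic and 40 of 57 interneuron-labelled cells, and by -0.77 in summed counts. Pou3f1 (0.19) and Pou3f2 (-0.02) differed by less than 1, with SDs of 1.80 to 2.52 in each group. Of 16 other upper layer genes 4 were higher in glutamatergic cells and none lower, among them Nectin3 (2.24), and of 14 deep layer genes 9 were higher, led by Tbr1 (3.87), a factor of layer VI neurons. Of other cell types, 2 of 3 measured intermediate progenitor markers (median list sum 62.2 CPM per glutamatergic cell and 0.143 CPM per interneuron-labelled cell) and 1 of 4 astrocyte markers were higher in glutamatergic cells, 1 of 10 progenitor markers was lower, and no microglia or erythrocyte gene was called; their part in the result was not tested.

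**Figure D4:**
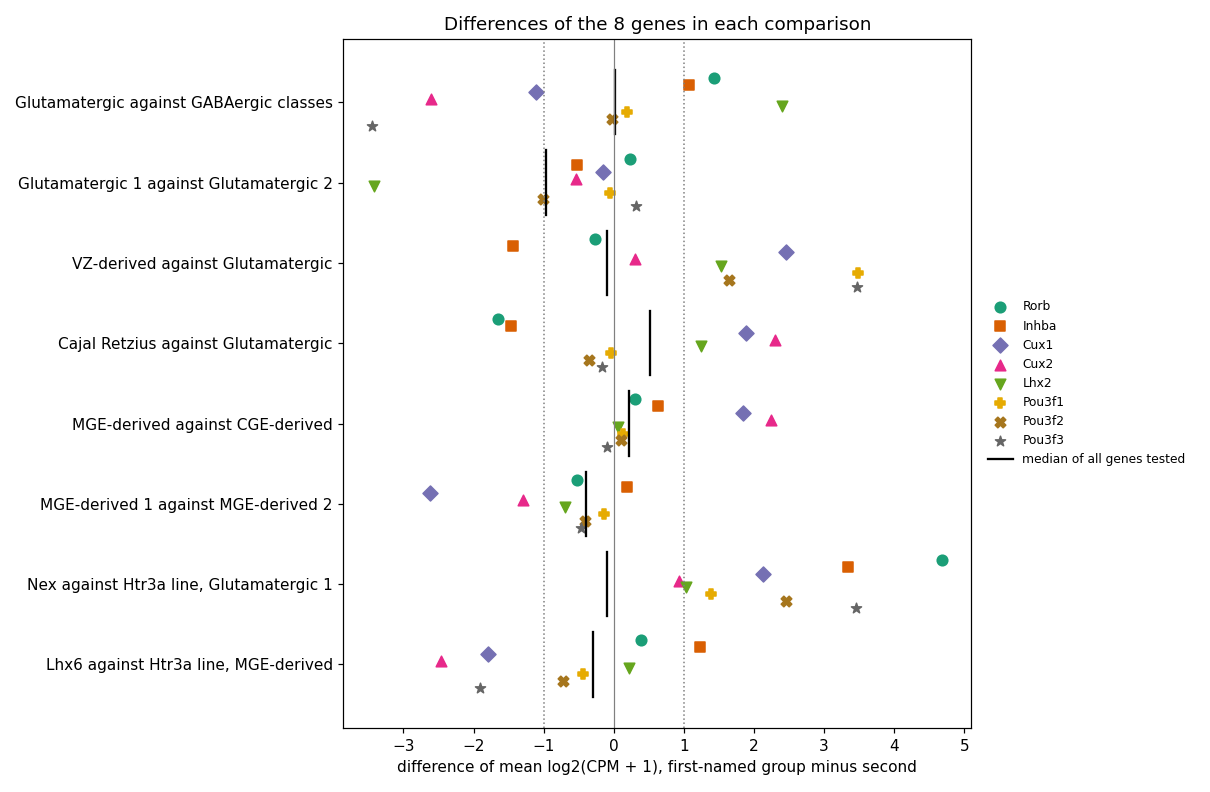
Difference in the mean of log2(CPM + 1) for each of the 8 genes (symbols) in each comparison, first-named group minus second, with the median of all genes tested as a black bar and differences of 1 as dotted lines. For Nex line against Htr3a line cells 7 symbols lie right of the upper dotted line, and Pou3f3 at -3.45 lies farthest left for glutamatergic against interneuron-labelled cells.

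Glutamatergic 1 cells were set against Glutamatergic 2 cells. Lhx2 and Pou3f2 were lower in Glutamatergic 1 cells and no gene of the 8 was higher, in a comparison where 48.7% of 12564 genes were lower and 1.19% higher, the median difference was -0.97, and Glutamatergic 1 cells had fewer genes (median 4954, against 7585 in Glutamatergic 2 cells). Lhx2 was at 0 to 462 CPM in Glutamatergic 1 cells (14 of 33) and at 9.34 to 221 CPM in Glutamatergic 2 cells (13 of 13), a log2 difference of -3.42 (mean 2.15 ± 3.12 against 5.57 ± 1.53), and -3.72 within the Htr3a line. Pou3f2 differed by -1.01, and by -0.39 without the Glutamatergic 2 cell of highest level (594 CPM). Rorb (0.23), Pou3f3 (0.32) and Pou3f1 (-0.06) were above the median difference of all genes. These 3 genes were higher in Nex line cells, of which Glutamatergic 1 held 10 and Glutamatergic 2 held 1. In Htr3a line cells alone, all 3 means were lower in Glutamatergic 1 (Rorb 0.30, Pou3f3 0.52, Pou3f1 0.52) than in Glutamatergic 2 cells. Of 15 measured other upper layer genes 8 were lower, a share near the 48.7% of all genes, and 1 was higher. Their median difference was -1.17, beside -0.97 for all genes, and Tle1 (-5.20) and Nectin3 (-3.28) were lowest. Of 14 deep layer genes 4 were higher and 4 lower, with Sox5 at 2.20 and Crym at -4.48. Markers of cell types were lower as well, beside the 48.7% of all genes. Of progenitor markers 3 of 4 measured were lower (of 11, median sum 4.32 CPM per Glutamatergic 1 cell and 164 CPM per Glutamatergic 2 cell). Intermediate progenitor markers were lower in 2 of 3 cases (of 6, median 0.174 CPM in Glutamatergic 1 and 149 CPM in Glutamatergic 2 cells). Astrocyte markers were lower in 2 of 4 cases (of 6, median 0 CPM in Glutamatergic 1 and 199.7 CPM in Glutamatergic 2 cells). Oligodendrocyte lineage markers were lower in 2 of 3 cases and glutamatergic markers in 4 of 7. None of these lists had a higher gene, and their part in the result was not tested.

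VZ-derived cells were set against the same 46 glutamatergic cells, which the comparison of Cajal Retzius cells below shares too. All 3 Pou3f genes, Cux1 and Lhx2 were higher in VZ-derived cells, 5 of 8 genes, where 11.6% of 12256 genes were higher, and Inhba alone was lower, where 14.7% were. Pou3f1 was at 0 to 301 CPM in VZ-derived cells (median 80.3, 7 of 11) and at 0 to 348 CPM in glutamatergic cells (median 0, 15 of 46), a log2 difference of 3.48 (mean 4.44 ± 3.71 against 0.96 ± 2.11). Pou3f3 was at 0 to 1257 CPM in VZ-derived cells (median 102, 8 of 11) and at 0 to 328 CPM in glutamatergic cells (median 0, 15 of 46), a difference of 3.46. Pou3f2 differed by 1.64 (6 of 11 against 8 of 46), Cux1 by 2.45 (9 of 11 against 23 of 46) and Lhx2 by 1.54 (7 of 11 against 27 of 46). Among cells with 4000 to 9000 genes the Pou3f2 difference was 0.67 and the Lhx2 difference 0.76.

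The VZ-derived cells were split in their Pou3f genes. Of the 11 cells, 4 held all 3 genes, 4 held a pair of them, 1 held 1 and 2 held none. A Htr3a line cell carried Pou3f1 at 199 CPM, Pou3f2 at 129 CPM and Pou3f3 at 1257 CPM, and another carried Pou3f1 at 118 CPM, Pou3f2 at 186 CPM and Pou3f3 at 550.1 CPM. Inhba was at 0 to 0.997 CPM in VZ-derived cells (1 of 11) and at 0 to 258 CPM in glutamatergic cells (13 of 46), a difference of -1.44, which was -0.62 within the Htr3a line. Other upper layer genes were mixed (3 higher and 2 lower of 15), as were deep layer genes (6 higher and 5 lower of 14), with Tle4 at -3.48 and Foxp1 at 2.07. Of 5 measured progenitor markers Hopx was lower in VZ-derived cells, of 3 intermediate progenitor markers Insm1 was higher, and no microglia, astrocyte or erythrocyte gene was called. Of 5 measured Cajal-Retzius cell markers (of 9), Reln and Ndnf were higher in VZ-derived cells. Their list sums were 0 to 8260 CPM per VZ-derived cell (median 319, Ebf2 and Ebf3 at 0) and 0 to 451 CPM per glutamatergic cell (median 6.02). Of 6 measured glutamatergic markers (of 7), Slc17a7 and Neurod1 were lower. The part of these markers in the result was not tested.

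Cajal Retzius cells are early-born neurons of the marginal zone that release reelin. Cux2, Cux1 and Lhx2 were higher in them than in glutamatergic cells, 3 of 8 genes, a share near the 34.0% of 12722 genes that were higher. Rorb and Inhba were lower, where 7.97% of genes were. Cux2 was at 0 to 428 CPM in Cajal Retzius cells (median 6.22, 9 of 12) and at 0 to 68.8 CPM in glutamatergic cells (median 0, 10 of 46), a log2 difference of 2.30 beside a median of 0.51 over all genes. Cux1 differed by 1.89 in the mean over cells, with 10 of 12 against 23 of 46 cells, and by -0.21 in summed counts, at 75.9 CPM in Cajal Retzius cells and 87.6 CPM in glutamatergic cells, so its direction depended on how cells were weighted. Lhx2 differed by 1.24 over cells and by 0.17 in summed counts. Rorb had a count in 0 of 12 Cajal Retzius and 13 of 46 glutamatergic cells (-1.66), and Inhba in 1 of 12 and 13 of 46 (-1.47). Within the Htr3a line these were -0.46 and -0.69. Of 16 other upper layer genes 10 were lower in Cajal Retzius cells, Mef2c most (-5.68), and Dkk3 was higher by 8.95. Of 6 measured progenitor markers 2 were higher in Cajal Retzius cells (median list sum 63.7 CPM per Cajal Retzius cell and 19.4 CPM per glutamatergic cell). Of 5 erythrocyte genes 2 were lower (median 1.18 CPM in Cajal Retzius and 18.1 CPM in glutamatergic cells). Interneuron markers were higher too, 5 of 7 measured MGE markers, 4 of 6 CGE markers and 1 of 6 GABAergic markers, and none was lower. MGE marker sums were 0.0651 to 2927 CPM per Cajal Retzius cell (median 2.39) and 0 to 262 CPM per glutamatergic cell (median 0.0928). Median CGE marker sums were 1472 CPM in Cajal Retzius and 45.8 CPM in glutamatergic cells. The part of these markers in the result was not tested.

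Among interneuron labels the pair of Cux genes varied most. In MGE-derived cells (42) Cux2 was at 0 to 358 CPM (median 4.97, 34 of 42) and in CGE-derived cells (11) at 0 to 147 CPM (median 0, 3 of 11), a log2 difference of 2.24, or 3.06 within the Htr3a line. Cux1 was at 0 to 694 CPM in MGE-derived cells (median 10.9, 27 of 42) and at 0 to 31.8 CPM in CGE-derived cells (median 0.854, 9 of 11), a difference of 1.85. CGE-derived cells thus held a count of it more often, at lower levels. At a CPM of at least 1 they did not hold it more often, as their median lay below 1 CPM. Cux2 and Cux1 were the 2 of 7 measured genes that were higher, where 17.4% of 12753 genes were, and none was lower, where 10.8% were. Pou3f3 was at 0 to 686 CPM in MGE-derived cells (median 57.9, 33 of 42) and at 0 to 476 CPM in CGE-derived cells (median 75.3, 9 of 11), a difference of -0.10 beside SDs of 3.23 and 3.25. Microglia markers were higher in MGE-derived cells in 2 of 8 cases, with sums of 0 to 12310 CPM per MGE-derived cell (median 0.169) and 0 to 109 CPM per CGE-derived cell (median 0, Aif1 and P2ry12 at 0), and their part in the result was not tested.

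Between the MGE-derived labels, Cux1 and Cux2 were lower in MGE-derived 1 than in MGE-derived 2 cells. These 2 of 8 genes were a share near the 22.6% of 13837 genes that were lower, while 2.61% were higher. Cux1 was at 0 to 649 CPM in MGE-derived 1 cells (median 0.143, 10 of 18) and at 0 to 694 CPM in MGE-derived 2 cells (median 142, 17 of 24), a log2 difference of -2.63. Cux2 differed by -1.30 (12 of 18 against 22 of 24 cells), and by -0.95 among cells with 4000 to 9000 genes. The median difference of all genes was -0.39. Microglia markers were lower in MGE-derived 1 cells in 5 of 8 cases (median -1.13), with sums of 0 to 12052 CPM per cell (median 0.0458) against 0 to 12310 CPM in MGE-derived 2 cells (median 0.379) and none of the 8 at 0 in either label. Of 11 progenitor markers Vim, Fabp7 and Sox2 were lower, with sums of 0 to 1051 CPM in MGE-derived 1 cells (median 0.831, Hes1 at 0) and 0 to 3143 CPM in MGE-derived 2 cells (median 119.5). Of 5 erythrocyte genes 2 were higher, with sums of 0 to 2426 CPM in MGE-derived 1 cells (median 25.1) and 0 to 392 CPM in MGE-derived 2 cells (median 22.6). The part of these markers in the result was not tested.

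Within MGE-derived cells, the 14 Lhx6 line cells stood below the 28 Htr3a line cells in Cux2, Pou3f3 and Cux1. These were 3 of 8 genes, where 20% of 14147 genes were lower. Inhba stood above, where 9.01% of genes were higher. The Lhx6 line cells were 7 MGE-derived 1 and 7 MGE-derived 2 cells, and the Htr3a line cells 11 and 17. The label higher in Cux1 and Cux2, MGE-derived 2, thus weighed more in the Htr3a line. Median genes per cell were 4581.5 in Lhx6 line and 5493.5 in Htr3a line cells. The part of the label mix in the result was not tested. Cux2 was at 0 to 211 CPM in Lhx6 line cells (median 0.737, 9 of 14) and at 0 to 358 CPM in Htr3a line cells (median 25.9, 25 of 28), a log2 difference of -2.46. Pou3f3 was at 0 to 232 CPM in Lhx6 line cells (median 14.6, 9 of 14) and at 0 to 686 CPM in Htr3a line cells (median 69.1, 24 of 28), a difference of -1.91, and Cux1 differed by -1.79 (6 of 14 against 21 of 28 cells). Inhba had a count in 3 of 14 Lhx6 line and 2 of 28 Htr3a line cells (1.23), and differed by 0.80 without the cell of highest level (132 CPM). Microglia markers were lower in all 8 cases in Lhx6 line cells, with sums of 0 to 8.59 CPM per cell (median 0.152, Cx3cr1, Aif1 and P2ry12 at 0) against 0 to 12310 CPM in Htr3a line cells (median 0.196), and their part in the result was not tested.

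The 3 Pou3f genes were found together in single cells more often than their separate counts would give if they were independent, over all cells and within labels. Pou3f1 and Pou3f2 were both present in 34 passed cells (15.6 if independent), Pou3f1 and Pou3f3 in 42 cells (28.5) and Pou3f2 and Pou3f3 in 42 cells (27.3). With the expected number taken within each of the 9 labels and added up, these were 18.5, 29.1 and 30.6 cells. Every other pair of the 8 genes also exceeded its number within labels, so the excess was not particular to the Pou3f genes. Examples were Inhba and Pou3f2 (14 cells, against 8.25) and Rorb and Pou3f1 (19 cells, against 12.2). With every cell thinned to 1500000 counts, 29 cells held Pou3f1 and Pou3f2 together. Cells with more genes had more chance of each count: cells with both Pou3f1 and Pou3f2 had a median of 7440.5 genes and the other cells 5128.5. All 3 genes were present in 32 cells, a pair in 22, 1 in 42 and none in 52. By label, all 3 were in 10 of 22 Undefined, 4 of 11 VZ-derived, 3 of 13 Glutamatergic 2, 5 of 24 MGE-derived 2 and 2 of 33 Glutamatergic 1 cells, and 18 of 33 Glutamatergic 1 cells held none.

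**Figure D5:**
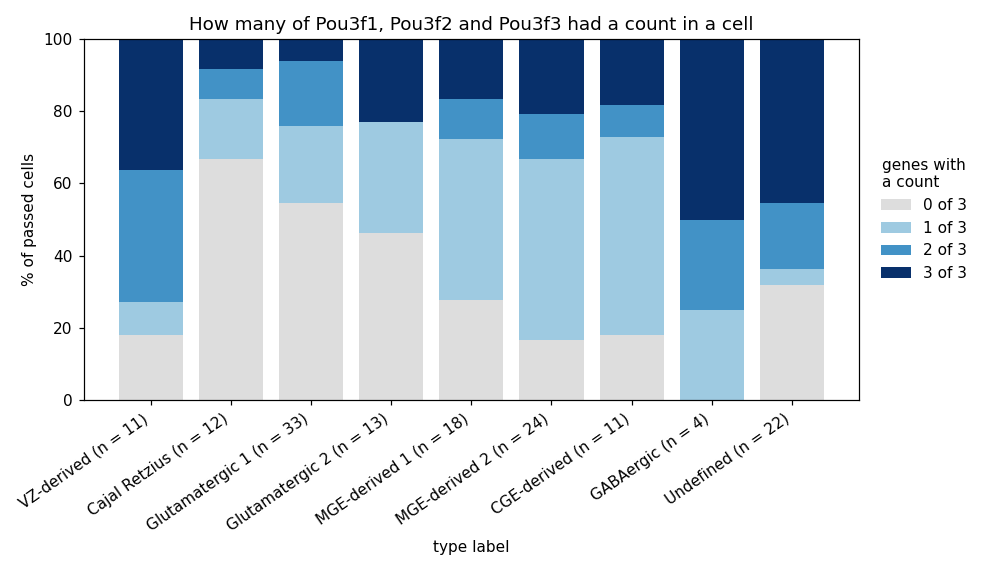
Share of passed cells under each type label in which 0, 1, 2 or 3 of the genes Pou3f1, Pou3f2 and Pou3f3 had a count. The darkest part, all 3 genes, covers 10 of 22 Undefined and 4 of 11 VZ-derived cells, and the palest, none, covers 18 of 33 Glutamatergic 1 and 8 of 12 Cajal Retzius cells.

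The Cux pair was together in 61 passed cells (50.8 if independent, 53.8 if independent within labels, 52 cells after thinning). In most labels the excess was small, as in MGE-derived 2 cells (16 cells, against 15.6) and Cajal Retzius cells (8, against 7.5), or absent, as in MGE-derived 1 cells (6, against 6.67); the largest were in Glutamatergic 1 cells (6, against 3.18) and Undefined cells (12, against 9.27). The 2 levels had r = 0.34 over all passed cells. Lhx2 and Cux2 were together in 36 cells, against 37.0 if independent and 33.8 if independent within labels. Lhx2 and Pou3f3 shared 39 cells, against 41.8 (37.1 within labels), so both pairs were slightly above the number within labels. Rorb and Pou3f2 shared 20 cells, against 9.84 (11.6 within labels), and Rorb and Inhba 9 cells, against 5.45 (6.68 within labels). Of the passed cells 7 held none of the 8 genes, and 6 of those were Glutamatergic 1 cells. All these cells share depth and library effects, and the r values are descriptions only.

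The genes with levels most like each of the 8 were named by Pearson r of log2(CPM + 1) over the same passed cells, among 12465 other genes. Pou3f1 and Pou3f2 had each other first (r = 0.53), followed by Smo and Boc (0.45 each), which encode hedgehog pathway membrane proteins, for Pou3f1, and by Meis2 (0.48) and Cdk6 (0.45) for Pou3f2. Pou3f3 had Pou3f1 first (0.43), then Sox11 (0.42) and Mn1 (0.41). Cux2 had Maf (0.57) and Sox6 (0.56), transcription factor genes of interneurons, and none of the other 7 genes came as near (Cux1 0.34). Rorb had Arhgap29 (0.49), Rbm24 (0.46) and the clock gene Arntl (0.45), Inhba had Tbc1d32 (0.46), Lhfp (0.45) and the NMDA receptor gene Grin2a (0.45), Lhx2 had Nrn1 (0.48), Gpi1 (0.46) and Clstn2 (0.44), and Cux1 had Kiz (0.42), Trim8 (0.39) and H1f0 (0.39).

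Pou3f4, the remaining gene of the family, was rare. It had a count in 0 of 33 Glutamatergic 1 cells, which allows a share of up to 9.09%, and in 3 of 13 Glutamatergic 2 cells (0.572 CPM summed). It was in 3 of 46 glutamatergic cells (0.201 CPM) and 8 of 57 interneuron-labelled cells (0.786 CPM), and in none of the 11 VZ-derived and 12 Cajal Retzius cells.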

How the data were processed

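Each library held the RNA of 1 cell. The tools named are featureCounts, STAR and Trimmomatic and the build is GRCm38, per the submitters' processing notes; versions and strand settings are not given in the sources used here. The authors deposited counts, whole reads per gene and cell, by Ensembl identifier and by symbol, and a table of normalized signal for the passed cells (22800 genes); there, dividing each cell's counts by a single factor gave 99.8% of the values to within 0.1%. How that factor was set is not given. The symbol table was held only in part (9723 genes, with Cux1 and Cux2 among the 8), so the Ensembl counts were used and the others served as alternatives. Of 22880 Ensembl rows, 22570 took a symbol from GENCODE M21 and 310 kept the identifier, and summing rows of 1 symbol left 22879 genes.

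Groups were the submitters' type, line and quality labels. CPM was computed from a cell's own total, and groups were compared by the difference of their means of log2(CPM + 1). Levels of a group are the CPM of its counts added up, with exact Poisson intervals where printed, and shares are of cells with at least 1 count. Intervals are at 95% and cover counting error only. Genes with a count in at least 10% of either group's cells were compared, and a difference of at least 1 in size is called higher or lower. Where a group had no count, the fold was taken against 3 counts in the whole group and is a lower bound, and a share of 0 is given the limit of 3 cells. The number of genes with a count was held alike by keeping the 98 passed cells with 4000 to 9000 genes, and depth by thinning cells to 1500000 counts. Depth per cell is given with the results by range.

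The 8 genes, the lists and the comparisons were chosen with earlier results of these data known. Named besides the 8 were, for each, the 3 genes with the highest Pearson r over the passed cells, up to 4 members of a list with a difference of at least 1 in size, taken from the largest down, Pou3f4, and markers used to check labels; 2 genes named by this rule are not reported here. Alternatives were log2(CPM + 0.1) and log2(CPM + 10), summed counts, the authors' normalized table, the symbol counts, the Htr3a line alone, like numbers of genes, failed cells added and the cell of highest CPM left out. The code was tested on simulated data. It ran in Python 3.11.15 with numpy 2.4.6, pandas 2.3.3, scipy 1.17.1 and matplotlib 3.10.9.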

Additional observations from a re-analysis of the deposited data

Results flagged for a closer look

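The 14 cells that failed the submitters' quality control, which stand outside the comparisons, also held these genes. More than 3 counts of Rorb were found in 2 failed cells, of Cux1 in 5, of Cux2 in 3, of Lhx2 in 2, of Pou3f1 in 1, of Pou3f2 in 1 and of Pou3f3 in 5. Failed cells had 122 to 13277123 counts and a median of 2032.5 genes.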

How the results depend on the processing

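Of 307 alternative values of the 34 differences called for the 8 genes, 306 kept their sign and 267 stayed at 1 or more in size. The exception in sign was Cux1 in Cajal Retzius against glutamatergic cells, at -0.21 by summed counts. Counts of the 8 genes called that moved by more than 1.5 times follow, with the main count in parentheses. With log2(CPM + 10), glutamatergic against interneuron-labelled cells had 1 higher (3), Glutamatergic 1 against Glutamatergic 2 had 1 lower (2), VZ-derived against glutamatergic 0 lower (1), Cajal Retzius against glutamatergic 1 higher (3) and 0 lower (2), MGE-derived 1 against MGE-derived 2 had 1 lower (2), and the Lhx6 against the Htr3a line 0 higher (1). With log2(CPM + 0.1) the last had 5 lower (3). By summed counts, Glutamatergic 1 against Glutamatergic 2 had 2 higher (0), VZ-derived 2 lower (1), Cajal Retzius 1 higher (3), MGE-derived against CGE-derived 4 higher (2) and 1 lower (0), MGE-derived 1 against MGE-derived 2 had 1 higher (0) and 4 lower (2), and the Lhx6 against the Htr3a line 3 higher (1). Within the Htr3a line, glutamatergic against interneuron-labelled cells had 1 higher (3), VZ-derived 0 lower (1) and Cajal Retzius 0 lower (2). Among cells with like numbers of genes, Glutamatergic 1 against Glutamatergic 2 had 1 lower (2), VZ-derived 3 higher (5) and MGE-derived 1 against MGE-derived 2 had 1 lower (2), 18 cells held all 3 Pou3f genes (32) and 20 held Pou3f1 and Pou3f2 (34); this setting keeps 98 cells. The authors' normalized table, failed cells added and the cell of highest CPM left out each gave 1 lower (2) in Glutamatergic 1 against Glutamatergic 2, and the last also 0 higher (1) in the Lhx6 against the Htr3a line. The count for the Nex against the Htr3a line stayed within 1.5 times in every alternative run. Of 352 alternative shares of cells with a count, 29 left the exact 95% interval of the main share, 26 of them downward; 9 did so at a CPM of at least 1, 8 at a count of at least 10, 6 in the Htr3a line alone, 4 among cells with like numbers of genes and 2 after thinning. At a CPM of at least 1, Pou3f1 was in 15.2% of Glutamatergic 1 cells, Cux1 in 45.5% of CGE-derived cells and Cux2 in 70.8% of MGE-derived 2 cells. Sums without the cell of most counts were added after seeing the data. The cause of these moves was not tested. No paired analysis was possible because no label pairs cells or names an animal. With 1 sample a group and levels set by single cells, the spread between animals is unknown, and 0 counts limit shares to those printed.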
